A study of Mus musculus with 6 samples.

Results

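Oligodendrocytes, the cells that wrap axons of the brain and spinal cord in myelin, were followed through 34 genes that mark their lineage from precursor to myelin-forming cell. The genes were taken by symbol from a count table of 53746 genes, and all 34 had a row there. They comprised 3 genes of oligodendrocyte precursors, 5 genes of committed and newly formed oligodendrocytes, 4 transcription factor genes that act at more than 1 stage of the lineage, and 22 genes of mature oligodendrocytes and their myelin.

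RNA was measured in the whole cerebellum of 6 mice at 2 months of age. In 3 *N153S*LSL/LSL*Pcp2-cre* mice, named Pcp2-cre below, the genome held the *Sting1* N153S knockin behind a LoxP-Stop-LoxP cassette on both alleles together with the *Pcp2-cre* transgene, and 3 *N153S*LSL/LSL mice, the controls, had the same alleles without Cre. *Pcp2-cre* drives Cre in Purkinje cells, so the mutant protein, which is constitutively active, was directed to these neurons and not to oligodendrocytes. Mice 1 and 2 of each genotype were male and mouse 3 was female, all were perfused with PBS before the cerebellum was frozen, and the libraries were made from poly A RNA of the whole tissue. Library depth, as the sum of deposited counts, was 8151391, 6809768 and 10178218 for the controls in the order of their numbers and 7565899, 8572674 and 6733178 for the Pcp2-cre mice.

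Oligodendrocytes arise from precursors that divide and sense growth factors, pass through a brief committed stage in which they stop dividing, and then either die or mature and build myelin. Maturation is driven by transcription factors such as SOX10 and MYRF, and mature cells make very large amounts of a few myelin proteins and lipids. In the cerebellum most of these cells lie in the white matter and the granule cell layer, where they myelinate Purkinje cell axons and the fibers that enter the cerebellar cortex. In bulk RNA, fewer cells of a type and less RNA per cell cannot be told apart, and the same holds for more cells and more RNA per cell.

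The engineered gene and the Purkinje cell genes were examined to check the labels. *Sting1* had 23.2, 27.2 and 26.2 CPM (counts scaled to library size, with edgeR's TMM factors) in the control and 44.4, 34.2 and 35.5 CPM in the Pcp2-cre mice, always given in the order of mouse 1, 2 and 3. Every Pcp2-cre mouse was above every control mouse. Microglia also express *Sting1*, and the 7 microglia genes given further on went in sum from at most 104 CPM in the controls to at least 245 CPM in the Pcp2-cre mice, and their part in the difference of *Sting1* was not tested. The 6 Purkinje cell genes were lower in each Pcp2-cre mouse than in any control mouse, with summed levels of 6435, 6300.4 and 5894 CPM in the control and 3494, 3155 and 3373 CPM in the Pcp2-cre mice.

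Control mice 1 and 2 stood apart from the other 4 libraries in transcripts of the choroid plexus, the secretory epithelium of the ventricles that adjoins the cerebellum. The 8 choroid plexus genes summed to 806 and 1246 CPM in control mice 1 and 2, 32.5 CPM in control 3, and 24.2, 31.5 and 86.6 CPM in the Pcp2-cre mice. *Ttr*, the most abundant of them at 716 FPKM (fragments scaled to exon length and library size, as deposited) on average in the controls, had 645 and 1027 CPM in control mice 1 and 2, 3.07 CPM in control 3, and 4.21, 6.81 and 61.4 CPM in the Pcp2-cre mice. The defining genes *Folr1*, *Kcne2* and *Aqp1* had at most 0.592 CPM in control 3 and in the Pcp2-cre mice. In most of these transcripts control 3 was thus closer to the Pcp2-cre libraries than to the other controls. *Clic6* was an exception in part, with 40.5, 52.0 and 10.998 CPM in the control and 1.58, 2.54 and 2.66 CPM in the Pcp2-cre mice, and it fell against control 3 alone as well. Counts of oligodendrocyte genes are given below both with all mice and with control 3 as the only control, a comparison chosen after seeing the data in which the lone control is assumed to vary like the Pcp2-cre mice. Control 3 is female and 2 of the 3 Pcp2-cre mice are male, so genotype and sex cannot be fully told apart there.

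As a group, the oligodendrocyte genes were higher in Pcp2-cre cerebellum by a small amount. Summed over the 34 genes, the level was 3986, 3953 and 4186 CPM in the control and 4715, 4554 and 4731 CPM in the Pcp2-cre mice, so that the lowest Pcp2-cre mouse lay above the highest control mouse. All 34 genes passed edgeR's filter on low counts and were tested among 16961 genes. At the study's thresholds, an adjusted p not above 0.05 (edgeR's quasi-likelihood test, Benjamini-Hochberg) and a log2 fold change not under 0.5, 3 of the 34 were upregulated, *Gpr17*, *Padi2* and *Opalin*, where 1.37% of all tested genes were. None was downregulated by edgeR or DESeq2, and 0 genes had a lower level even at an unadjusted p of 0.05, where 9.67% of all tested genes were lower and 8.36% higher. By adjusted p alone, 15 of the 34 rose, 44.1% of the members against 2.99% of all tested genes, and 10 of the 34 rose by DESeq2's adjusted p and 0 fell, against 1.66% and 3.23% of all tested genes.

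The median log2 fold change of the 34 genes was 0.21, against 0.005 over all tested genes, and 33 of the 34 estimates were above 0. Without *Gpr17*, *Padi2* and *Opalin* the median of the other 31 was 0.19. In 22 of the 34 genes every Pcp2-cre mouse was above every control mouse, a pattern found in 10.8% of all tested genes, and in no member was it the other way round. With control 3 as the only control, the median was 0.15, 7 members rose, against 2.01% of the 17717 genes tested there, and 2 members were upregulated past the fold threshold, *Padi2* and *Enpp6*, against 1.13%.

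**Figure D1:**
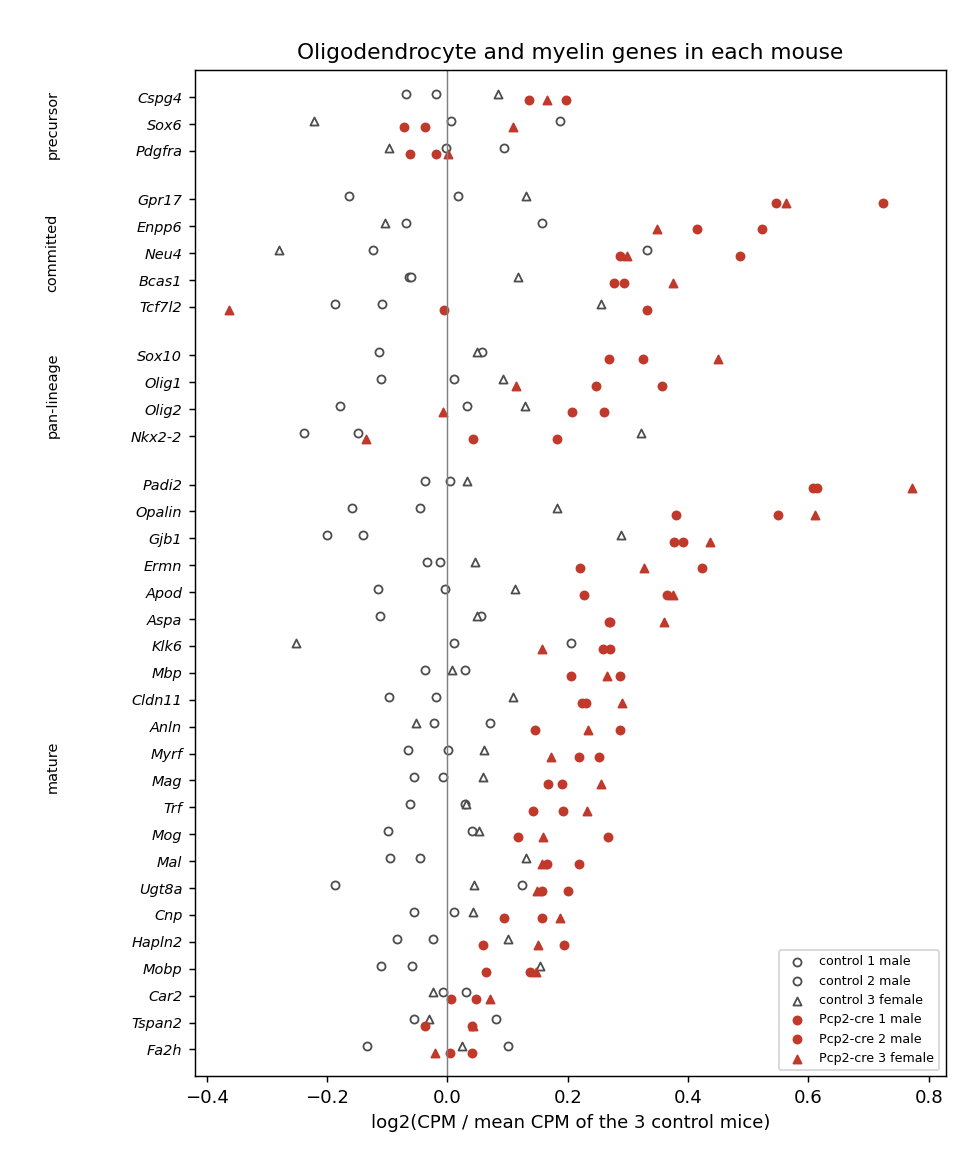
Level of each of the 34 genes in each mouse, as the log2 ratio of its CPM to the mean of the 3 control mice; open symbols are control mice, filled red symbols Pcp2-cre mice, circles males and triangles females. In 22 genes all filled symbols lie to the right of all open symbols, and the precursor genes *Pdgfra* and *Sox6* show mixed symbols.

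Genes of oligodendrocyte precursors did not pass the test, and 0 of the 3 passed with DESeq2. At an unadjusted p of 0.05 in edgeR there were 0 of the 3, against 8.36% of all tested genes higher and 9.67% lower. *Pdgfra*, the receptor through which precursors sense platelet-derived growth factor, had 27.3, 29.2 and 25.6 CPM in the control and 26.2, 27.0 and 27.4 CPM in the Pcp2-cre mice. *Sox6*, a transcription factor gene that holds precursors undifferentiated, had 16.7, 14.7 and 12.6 CPM in the control and 14.0, 14.3 and 15.8 CPM in the Pcp2-cre mice. In both genes the genotypes overlapped, and the log2 fold changes were -0.02 (SE 0.0819) and 0.01 (SE 0.12). *Cspg4*, which encodes the NG2 proteoglycan of the precursor surface, had 11.7, 11.3 and 12.6 CPM in the control and 13.0, 13.6 and 13.3 CPM in the Pcp2-cre mice. Its groups did not overlap, but its log2 fold change of 0.16 (SE 0.114) had an adjusted p of 0.533 (edgeR, Benjamini-Hochberg). *Cspg4* and *Pdgfra* are also expressed by pericytes and by meningeal cells, respectively, whose gene lists are given further on.

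Of the 5 genes of committed and newly formed oligodendrocytes, 3 rose, *Gpr17*, *Bcas1* and *Enpp6*, against 2.99% of all tested genes. *Gpr17* (ENSMUSG00000052229), a receptor gene switched on at the exit from the precursor state and off again before myelination, is at chr18:32076050-32082888 (GRCm39, reverse strand). It had 25.2, 28.6 and 30.9 CPM in the control and 46.6, 41.2 and 41.7 CPM in the Pcp2-cre mice. The lowest Pcp2-cre mouse was well above the highest control mouse. The log2 fold change was 0.61 (SE 0.0836), a 1.52-fold rise, with an adjusted p of 3.18e-05 (edgeR, Benjamini-Hochberg). With control 3 as the only control it was 0.48, under the fold threshold, with an adjusted p of 0.00295, within a range of 9.14e-12 to 0.0555 over 20 alternative settings.

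*Bcas1*, which marks oligodendrocytes that have begun to form myelin, had 96.9, 97.1 and 109.8 CPM in the control and 122.8, 124 and 131 CPM in the Pcp2-cre mice. Its log2 fold change was 0.31 (SE 0.0502), with an adjusted p of 2.45e-04 (edgeR, Benjamini-Hochberg), and 0.196 against control 3 alone, where it still rose. *Enpp6*, a choline phosphodiesterase gene of newly formed oligodendrocytes, had 11.98, 14.0 and 11.7 CPM in the control and 18.0, 16.7 and 16.0 CPM in the Pcp2-cre mice. The groups of both genes were separate. For *Enpp6* the log2 fold change was 0.44 (SE 0.112) and the adjusted p 0.0137 (edgeR, Benjamini-Hochberg). This call was lost when control 1, control 3, Pcp2-cre 1 or Pcp2-cre 2 was left out, with log2 fold changes of 0.41, 0.39, 0.39 and 0.45, and DESeq2 gave an adjusted p of 0.126 within a range of 0.00648 to 0.171 over the 20 settings.

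The remaining committed-stage genes did not pass. *Neu4*, a sialidase gene, had 6.74, 9.23 and 6.04 CPM in the control and 8.96, 10.3 and 9.02 CPM in the Pcp2-cre mice, and its log2 fold change of 0.39 (SE 0.166) came with an adjusted p of 0.198 (edgeR, Benjamini-Hochberg). Control 2 lay among the Pcp2-cre mice, and without it the log2 fold change was 0.57 and passed, while 0.643 against control 3 alone did not. *Tcf7l2*, a WNT pathway transcription factor gene expressed for a short time during differentiation, ranged from 6.85 to 9.31 CPM in the control and from 6.07 to 9.81 CPM in the Pcp2-cre mice, and the genotypes overlapped; its log2 fold change of 0.013 was -0.220 against control 3 alone.

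Among these transcription factor genes *Sox10* rose, 1 of the 4, against 2.99% of all tested genes. SOX10 is needed for oligodendrocytes to differentiate and survive and acts directly on myelin genes. It had 19.8, 22.3 and 22.2 CPM in the control and 26.9, 25.9 and 29.3 CPM in the Pcp2-cre mice, with no overlap. Its log2 fold change was 0.34 (SE 0.0883) and its adjusted p 0.0159 (edgeR, Benjamini-Hochberg). The call was lost without control 1, Pcp2-cre 1 or Pcp2-cre 3, where the log2 fold change was 0.29, 0.35 and 0.29, and its range over the 20 settings was 0.00918 to 0.262.

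*Olig1*, a basic helix-loop-helix factor gene that promotes maturation and the most abundant of these genes per length, had 40.8, 44.4 and 47.0 CPM in the control and 56.4, 52.3 and 47.6 CPM in the Pcp2-cre mice. Control 3 and Pcp2-cre 3, the female mice, were close to each other, and the log2 fold change of 0.24 (SE 0.0739) missed the threshold with an adjusted p of 0.0504 (edgeR, Benjamini-Hochberg). It passed without control 3 or without Pcp2-cre 3, with log2 fold changes of 0.30 and 0.29, and had 0.152 against control 3 alone. *Olig1* passed in 8 of the 20 alternative settings, among them sex as a covariate, at 0.239, and males only, at 0.353. *Olig2*, which specifies the lineage, had 12.1, 14.0 and 15.0 CPM in the control and 15.8, 16.4 and 13.6 CPM in the Pcp2-cre mice, with overlap, and a log2 fold change of 0.159 that was 0.036 against control 3 alone. *Nkx2-2*, a homeobox gene active at the onset of differentiation, had between 5.51 and 8.12 CPM in every library and a log2 fold change of 0.01 (SE 0.181), with -0.282 against control 3 alone.

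Of the 22 genes of mature oligodendrocytes, 11 rose, against 2.99% of all tested genes, and 2 of these passed the fold threshold, against 1.37%. In 16 of the 22 every Pcp2-cre mouse was above every control mouse, against 10.8% of all tested genes. The mean log2 CPM of the 22, set to 0 over the controls, was -0.01, -0.05 and 0.06 in the control and 0.24, 0.21 and 0.25 in the Pcp2-cre mice. The rise in the group was thus of similar size in each Pcp2-cre mouse. The same measure over the 3 precursor genes was 0.06, 0.01 and -0.07 in the control and 0.00, 0.05 and 0.09 in the Pcp2-cre mice, which overlapped. Over 18 other precursor genes, given further on, the measure was 0.049, -0.090 and 0.041 in the control. In the Pcp2-cre mice it was 0.085, 0.189 and 0.107, without overlap. Over 36 other mature genes it was 0.031, -0.032 and 0.001 in the control. It was 0.045, 0.062 and 0.108 there in the Pcp2-cre mice, also without overlap. That list includes *Enpp2*, which choroid plexus also makes. The overlap of the 3 precursor genes was thus not found in the 18 others. The difference between the stages was not tested.

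**Figure D2:**
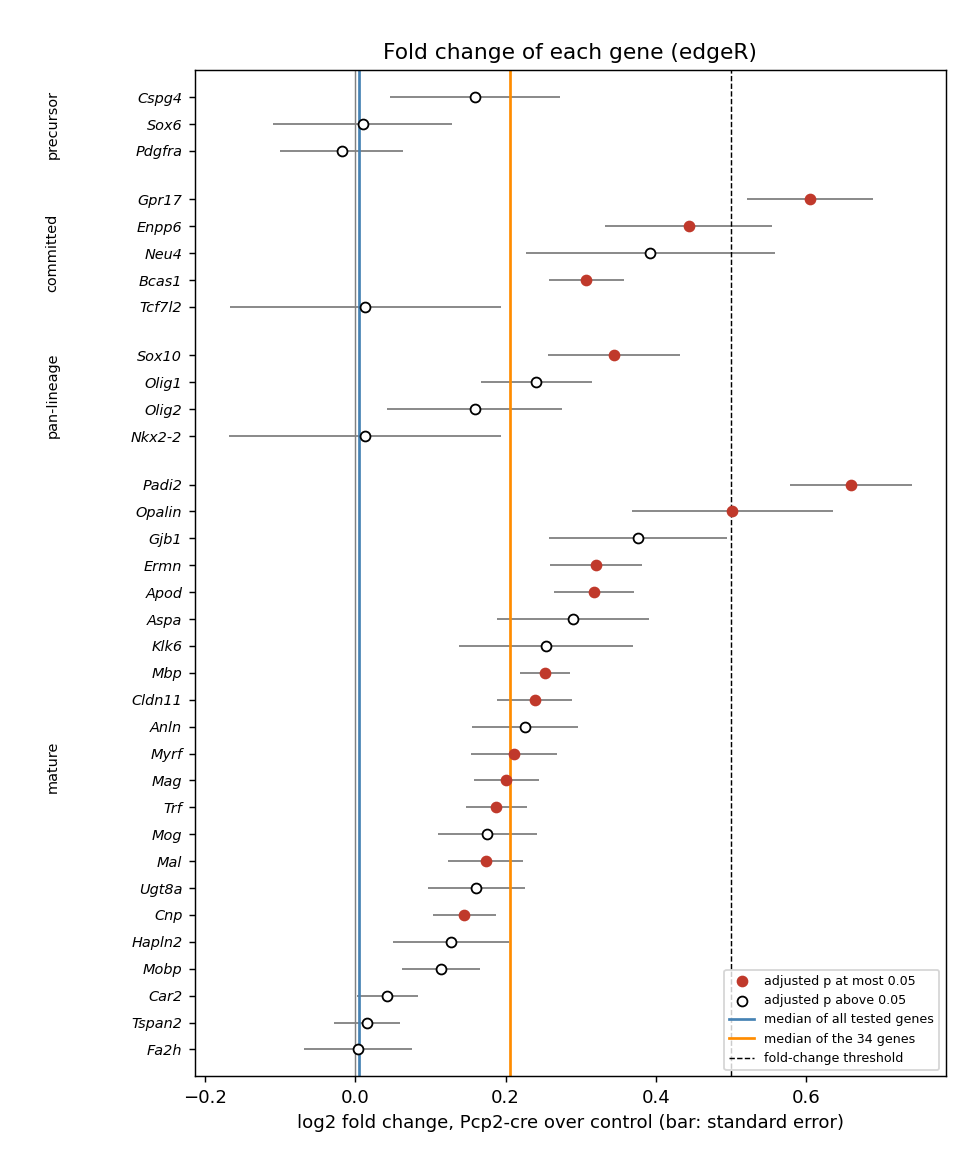
Log2 fold change of each gene, Pcp2-cre over control, with its standard error, by stage; red points have an adjusted p of at most 0.05 (edgeR, Benjamini-Hochberg), the blue line is the median of all tested genes (0.005), the orange line the median of the 34 genes (0.21) and the dashed line the threshold of 0.5. Red points are found in the committed, pan-lineage and mature stages, and 3 of them lie at or beyond the dashed line.

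*Padi2* (ENSMUSG00000028927) showed the largest fold change of the 34 with all mice, above *Gpr17* by less than the standard error of either. *Gpr17* was the larger in males only, at 0.710 against 0.629, and *Neu4* against control 3 alone, at 0.643 against 0.628. *Padi2* encodes an enzyme that converts arginine to citrulline in proteins and acts on myelin basic protein, and its gene is at chr4:140633647-140679897 (GRCm39, forward strand). It had 21.7, 22.3 and 22.8 CPM in the control and 34.1, 33.9 and 38.0 CPM in the Pcp2-cre mice. The control mice were nearly identical and every Pcp2-cre mouse was far above them. The log2 fold change was 0.66 (SE 0.0809), a 1.58-fold rise, with an adjusted p of 6.7e-06 (edgeR, Benjamini-Hochberg), and *Padi2* passed both thresholds under all 20 alternative settings.

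*Opalin* (ENSMUSG00000050121), a gene for a sialylated membrane protein of central myelin, is at chr19:41045254-41065553 (GRCm39, reverse strand). It had 7.98, 8.64 and 10.1 CPM in the control and 11.6, 13.0 and 13.6 CPM in the Pcp2-cre mice, without overlap. Its log2 fold change was 0.50 (SE 0.134), at the fold threshold, with an adjusted p of 0.0208 (edgeR, Benjamini-Hochberg). The call was lost with DESeq2 and without control 1, control 2, Pcp2-cre 2 or Pcp2-cre 3, where the log2 fold change was 0.42, 0.48, 0.48 and 0.46. With control 3 as the only control it was 0.33 and the adjusted p 0.42, the highest of a range that began at 0.00904.

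Since genes of several stages rose together, the RefSeq promoter table (GRCm38.p6) was searched for the 250 bases before the start of each gene. It held an entry for 25 of the 34 members, and not for *Gpr17*, *Bcas1*, *Mbp*, *Car2*, *Myrf*, *Trf*, *Sox10*, *Olig1* and *Fa2h*. The words searched on both strands were ACAAAG and ACAATG, cores of sites bound by SOX proteins, and CTGGCAC and CTGGTAC, cores of MYRF sites, none of which contains another. A SOX word was present in 14 of the 25 members and in 25.2% of all 32851 promoters in the table. A MYRF word was present in 4 of the 25, *Mag*, *Cnp*, *Hapln2* and *Mog*, and in 5.93% of all promoters. Both words of *Mag* lie in or after an annotated exon; for members whose promoter is not printed here, other than *Mag*, this was not examined. Of the 9 genes with an entry that rose, 6 had a SOX word, *Enpp6*, *Mag*, *Cnp*, *Opalin*, *Ermn* and *Apod*, and 2 had a MYRF word, *Mag* and *Cnp*. These matches are letters in a window and say nothing of whether a factor binds there.

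Printed below are the promoters of *Padi2* and *Opalin*, the upregulated genes with an entry, of *Enpp6*, from the committed stage, and of *Cnp*, which held words of both kinds. Each runs 5′ to 3′ on the gene's strand up to the first base of an exon annotated in Gencode, with the words in capitals, and was placed by exact match on GRCm39. That of *Padi2* is chr4:140633421-140633646 on the forward strand, that of *Opalin* chr19:41065554-41065802 on the reverse strand, that of *Enpp6* chr8:47439672-47439918 and that of *Cnp* chr11:100465515-100465729, both on the forward strand.
Padi2: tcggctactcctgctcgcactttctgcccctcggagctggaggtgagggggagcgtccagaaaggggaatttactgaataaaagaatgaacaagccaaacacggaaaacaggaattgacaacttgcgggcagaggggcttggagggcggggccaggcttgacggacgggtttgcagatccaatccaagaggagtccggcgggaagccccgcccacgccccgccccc
Opalin: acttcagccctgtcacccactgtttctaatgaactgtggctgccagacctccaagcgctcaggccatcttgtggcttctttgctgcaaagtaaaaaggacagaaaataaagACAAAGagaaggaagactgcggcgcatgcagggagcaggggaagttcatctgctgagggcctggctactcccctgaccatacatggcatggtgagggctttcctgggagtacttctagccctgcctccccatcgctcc
Enpp6: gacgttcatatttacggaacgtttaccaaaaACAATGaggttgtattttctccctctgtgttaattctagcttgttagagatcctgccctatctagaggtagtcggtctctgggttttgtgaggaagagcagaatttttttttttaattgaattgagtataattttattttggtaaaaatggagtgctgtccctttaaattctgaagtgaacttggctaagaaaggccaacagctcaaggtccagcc
Cnp: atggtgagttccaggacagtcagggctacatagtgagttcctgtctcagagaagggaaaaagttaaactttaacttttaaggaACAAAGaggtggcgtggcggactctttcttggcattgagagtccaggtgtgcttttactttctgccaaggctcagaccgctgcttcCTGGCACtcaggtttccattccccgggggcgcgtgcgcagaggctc
In *Opalin* the SOX word began 139 bases before the RefSeq start, in *Enpp6* 219 bases and in *Cnp* 167 bases before it, and the MYRF word of *Cnp* began 81 bases before the start. The *Padi2* promoter held none of the words, and its end next to the gene was rich in G and C.

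The most abundant myelin gene was *Mbp*, which encodes the protein that compacts the myelin sheath. It had 1316, 1378 and 1358 CPM in the control and 1647, 1558 and 1623 CPM in the Pcp2-cre mice. The genotypes were separated by more than the spread within either. The log2 fold change was 0.25 (SE 0.0332), a 1.19-fold rise, with an adjusted p of 1.72e-05 (edgeR, Benjamini-Hochberg). The call was lost with limma on log2 FPKM, although the log2 fold change there was larger, at 0.319 with a pseudocount of 1 or 0.1.

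*Mobp*, a gene for a basic protein of compact myelin and the next in level per length, had 513, 495 and 595 CPM in the control and 588, 558 and 591 CPM in the Pcp2-cre mice. Control 3 lay above all Pcp2-cre mice, and the log2 fold change of 0.11 (SE 0.052) did not pass. Without control 3 it was 0.20 and passed, and against control 3 alone it was -0.04. *Trf*, for transferrin, the iron carrier that oligodendrocytes make, had 393, 369 and 394 CPM in the control and 440.0, 425 and 452 CPM in the Pcp2-cre mice. It rose with a log2 fold change of 0.19 (SE 0.0407) and an adjusted p of 0.00408 (edgeR, Benjamini-Hochberg), but the estimate against control 3 alone, 0.16, did not pass.

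Other genes of compact and adjoining myelin that rose were *Mag*, *Cnp*, *Mal* and *Cldn11*. *Mag*, for the adhesion protein of the innermost wrap that faces the axon, had 149, 144 and 156 CPM in the control and 168, 170.4 and 178 CPM in the Pcp2-cre mice, and a log2 fold change of 0.20 (SE 0.0436, edgeR's Benjamini-Hochberg adjusted p = 0.00406). *Cldn11*, for the tight junction protein that seals the layers, had 95.1, 90.1 and 103.8 CPM in the control and 112, 113 and 118 CPM in the Pcp2-cre mice, and a log2 fold change of 0.24 (SE 0.0499, adjusted p = 0.00292, same test). In both genes the highest control mouse was control 3, with every Pcp2-cre mouse above it, but neither passed against control 3 alone, with log2 fold changes of 0.143 and 0.137, or with the choroid plexus score, with 0.161 and 0.158.

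*Cnp*, for the phosphodiesterase that keeps cytoplasmic channels in myelin open, had 306, 293 and 313 CPM in the control and 339, 325 and 346 CPM in the Pcp2-cre mice. *Mal*, for a protein that sorts myelin membrane, had 127, 122 and 143 CPM in the control and 152, 146 and 146 CPM in the Pcp2-cre mice. These were the smallest changes that passed, with log2 fold changes of 0.14 (SE 0.0418) and 0.17 (SE 0.0502) and adjusted p values of 0.0354 and 0.036 (edgeR, Benjamini-Hochberg). For each of them the call was lost when any mouse other than control 3 was left out, with log2 fold changes down to 0.12 and 0.13. Neither passed against control 3 alone, where *Cnp* had 0.102 and *Mal* 0.048, or with the choroid plexus score, at 0.111 and 0.057, and *Cnp* was 0.081 when libraries were scaled to granule cell genes. The adjusted p ranged over the 20 settings from 0.00972 to 0.494 and from 7.91e-04 to 0.803.

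Of the genes that act inside the mature cell or leave it, *Ermn*, *Myrf* and *Apod* rose. *Ermn*, for a cytoskeletal protein of late oligodendrocytes, had 54.3, 55.1 and 57.4 CPM in the control and 74.5, 64.8 and 69.7 CPM in the Pcp2-cre mice, and a log2 fold change of 0.32 (SE 0.0609, adjusted p = 0.0012, edgeR, Benjamini-Hochberg). *Apod*, for a secreted lipid carrier, had 135, 125 and 146 CPM in the control and 159, 175 and 176 CPM in the Pcp2-cre mice, and a log2 fold change of 0.32 (SE 0.0532, adjusted p = 3.26e-04, same test). In both the genotypes were separate, and both still rose against control 3 alone, with 0.276 for *Ermn* and 0.211 for *Apod*. *Myrf*, for the membrane-anchored transcription factor that turns on myelin genes, had 56.6, 54.1 and 59.1 CPM in the control and 65.9, 67.4 and 63.8 CPM in the Pcp2-cre mice. Its log2 fold change was 0.21 (SE 0.0573, adjusted p = 0.0233, edgeR, Benjamini-Hochberg). It did not pass without control 1, control 2, Pcp2-cre 1 or Pcp2-cre 2, with log2 fold changes of 0.21, 0.18, 0.21 and 0.19, and its adjusted p ranged from 0.0104 to 0.37 over the 20 settings.

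The other 10 mature genes did not pass. In *Mog*, *Aspa*, *Ugt8a*, *Gjb1* and *Anln* every Pcp2-cre mouse was above every control mouse, with log2 fold changes of 0.18, 0.29, 0.16, 0.38 and 0.23. *Gjb1*, the connexin 32 gene, had 12.8 and 13.4 CPM in control mice 1 and 2 but 18.0 CPM in control 3, against 19.2 to 19.97 CPM in the Pcp2-cre mice. It passed when control 3 was left out with a log2 fold change of 0.57, but had 0.110 against control 3 alone and 0.153 with the choroid plexus score. *Gjb1* passed in 7 of the 20 alternative settings, among them a replicate block, at 0.399, sex as a covariate, at 0.400, and males only, at 0.555. *Anln* passed in 3 of the 20, among them sex as a covariate, at 0.224. *Klk6* and *Hapln2* overlapped between genotypes in CPM, at log2 fold changes of 0.25 and 0.13, which were 0.482 and 0.031 against control 3 alone. *Fa2h*, which makes the hydroxylated fatty acids of myelin galactolipids, *Tspan2*, a tetraspanin gene, and *Car2*, the carbonic anhydrase gene of oligodendrocytes and some other glia, had log2 fold changes of 0.004, 0.02 and 0.04. *Ugt8a*, like *Fa2h*, encodes an enzyme of galactolipid synthesis, and neither was among the genes that rose.

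Of the 15 genes that rose, 9 passed whichever mouse was left out, *Gpr17*, *Bcas1*, *Mbp*, *Mag*, *Cldn11*, *Ermn*, *Apod*, *Trf* and *Padi2*. The 7 that rose against control 3 alone were *Gpr17*, *Bcas1*, *Enpp6*, *Mbp*, *Ermn*, *Apod* and *Padi2*, and the same 7 passed with a choroid plexus score as a covariate, a fit that is not independent, since only control 3 has a score within the range of the Pcp2-cre mice. Exons of many of these genes lie over an exon of a gene on the opposite strand, and the sources used here do not state whether the counting used strand, so reads from the pair cannot be told apart. That held for 22 of the 34 members and 10 of the 15 that rose, but *Enpp6*, *Sox10*, *Mal*, *Cldn11* and *Myrf* overlapped no annotated exon of another gene. *Gpr17* shared 320 of 5394 exonic bases with *Lims2*, which had 14.1, 14.9 and 14.7 CPM in the control and 18.3, 20.5 and 15.2 CPM in the Pcp2-cre mice. *Padi2* shared 591 of 5087 exonic bases with *Gm13031*, which had at most 3.4 CPM in any mouse, and *Opalin* shared 520 of 6305 with *Dntt*, at most 0.346 CPM.

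Per length, the 34 genes spanned a 686-fold range of levels in the controls. *Mbp* led with 801 ± 29.9 FPKM (SD, n = 3 mice), followed by *Mobp* at 205 ± 18.1, *Trf* at 139 ± 5.2, *Apod* at 113 ± 5.04 and *Cnp* at 107 ± 5.1 FPKM. *Mbp*, *Mobp* and *Trf* each exceeded the gene after it in every control mouse, whereas *Apod* and *Cnp* overlapped. The committed-stage genes lay far apart, with *Bcas1* at 39.8 ± 2.8 FPKM and *Gpr17* at 4.24 ± 0.464, *Enpp6* at 2.63 ± 0.287, *Tcf7l2* at 1.73 ± 0.246 and *Neu4* at 1.49 ± 0.244 FPKM. The precursor genes were low, with *Pdgfra* at 3.4 ± 0.482, *Sox6* at 1.8 ± 0.295 and *Cspg4* at 1.17 ± 0.0622 FPKM, the lowest of the 34. The genes with the largest fold changes were thus modest in level, *Padi2* at 3.76 ± 0.15 and *Opalin* at 3.65 ± 0.304 FPKM, which did not differ beyond their spread. In Pcp2-cre mice *Mbp* had 1000 ± 40.1, *Gpr17* 6.67 ± 0.659, *Padi2* 6.01 ± 0.296 and *Opalin* 5.06 ± 0.48 FPKM.

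**Figure D3:**
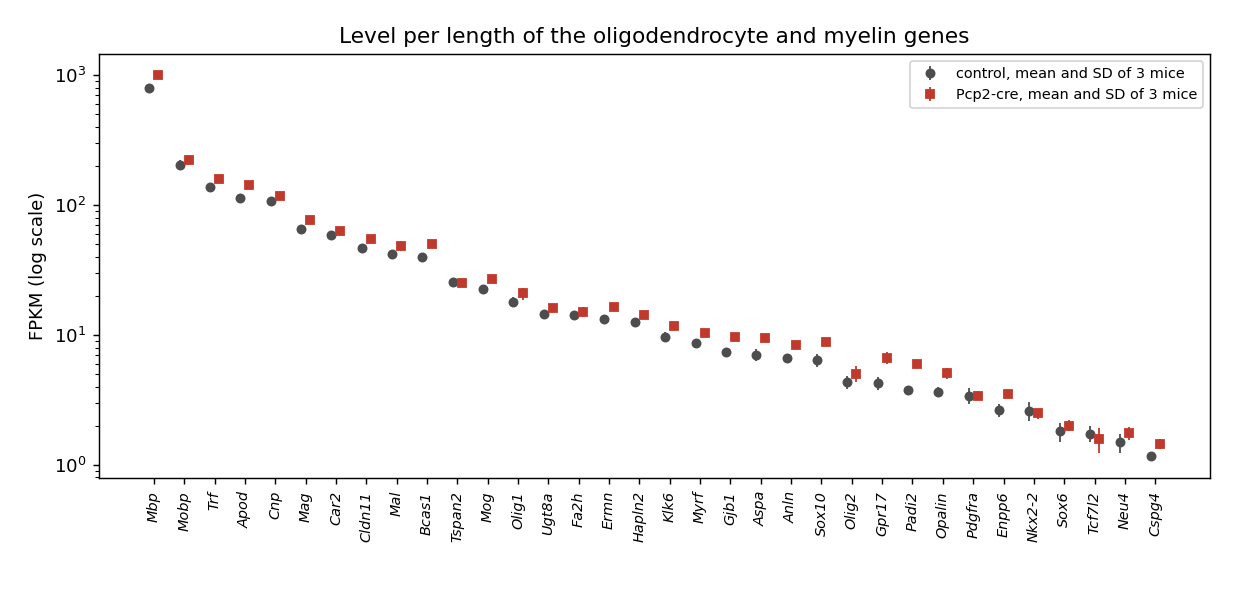
FPKM of the 34 genes on a log scale, in order of their mean in the controls; gray circles are control and red squares Pcp2-cre mice, with the SD of 3 mice. *Mbp* (801 FPKM) and *Cspg4* (1.17 FPKM) mark the ends of the range in the controls.

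Beyond the 34 members, 36 other genes enriched in mature oligodendrocytes moved in both directions. By edgeR's adjusted p, 10 rose and 4 fell, and by DESeq2's 5 and 3, around a median log2 change of 0.14; of all tested genes 2.99% rose and 4.75% fell, which also stands beside the counts for the lists below. The 6 that rose with the smallest p were *Cd9*, *Cryab*, *Qdpr*, *Ndrg1*, *Pllp* and *Plekhh1*. *Cd9*, for a tetraspanin that microglia and astrocytes also express, had 36.1, 31.3 and 30.8 CPM in the control and 50.4, 51.6 and 54.3 CPM in the Pcp2-cre mice. Its log2 fold change of 0.67 (SE 0.0744) did not differ beyond the standard error from the largest of the members, 0.66 (SE 0.0809) for *Padi2*. *Cryab*, for a small heat shock protein, had 54.6, 54.6 and 56.5 CPM in the control and 77.6, 72.4 and 71.2 CPM in the Pcp2-cre mice, and a log2 fold change of 0.41 (SE 0.0557). The other 4 had log2 fold changes between 0.23 and 0.36, and the call of *Plekhh1* was lost with DESeq2 and in 3 of the 6 fits with a mouse left out, that of *Pllp* in 1 of them.

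The 4 that fell were *Adamts4*, *Nkx6-2*, *Enpp2* and *Septin4*. *Adamts4*, for a secreted protease of mature oligodendrocytes, had 65.6, 59.0 and 57.8 CPM in the control and 43.3, 37.9 and 45.6 CPM in the Pcp2-cre mice, which were separate, and a log2 fold change of -0.53 (SE 0.0741). *Nkx6-2*, a homeobox gene, had a log2 fold change of -0.35 (SE 0.0647) in counts but of 0.10 in deposited FPKM, so its direction depended on the table. *Septin4*, which Bergmann glia also express, had a log2 fold change of -0.22 (SE 0.0412). *Enpp2*, for autotaxin, is made by choroid plexus as well, and had 791 and 1030 CPM in control mice 1 and 2 but 131 CPM in control 3, against 139, 142 and 175 CPM in the Pcp2-cre mice. Its log2 fold change of -2.09 (SE 0.393) did not pass with DESeq2 and became 0.21 against control 3 alone.

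Of 18 other precursor genes 3 rose by edgeR's adjusted p and 1 by DESeq2's, 0 fell by either, and the median log2 fold change was 0.09. At an unadjusted p of 0.05 in edgeR 6 were higher and 1 lower, against 8.36% and 9.67% of all tested genes. *Tnr*, for the matrix protein tenascin-R, had 157, 151 and 144 CPM in the control and 182, 171 and 168 CPM in the Pcp2-cre mice. *Cacng4* and *Vcan* rose with log2 fold changes of 0.26 each, beside 0.21 for *Tnr*, whose call was lost in 1 of the 6 fits with a mouse left out; DESeq2 and 5 of the 6 fits with a mouse left out lost the calls of *Cacng4* and *Vcan*. The 3 are also expressed by other glia or neurons of the cerebellum.

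Among 26 genes of signals that oligodendrocytes receive, 24 were tested, 2 rose and 4 fell, and the median log2 fold change was -0.06. The neuregulin receptor gene *Erbb3* had 12.5, 10.1 and 11.7 CPM in the control and 16.2, 14.1 and 15.8 CPM in the Pcp2-cre mice, and *Tyro3*, a receptor for GAS6 that neurons also carry, had 247, 255 and 275 CPM against 307, 289 and 313 CPM. Their log2 fold changes were 0.41 and 0.22. *Id2*, an inhibitor of differentiation that is expressed in many cell types, had 114, 113 and 113 CPM in the control and 85.1, 83.6 and 80.2 CPM in the Pcp2-cre mice. *Igf1r*, *Gas6* and *Tnfrsf21* fell with log2 fold changes of -0.23, -0.29 and -0.26, beside -0.44 for *Id2*. The calls of *Erbb3* and *Tnfrsf21* were lost with DESeq2 and in 4 and 5 of the 6 fits with a mouse left out. Apart from *Erbb3* these genes are widely expressed, and the cell type in which they moved was not measured. Apart from *Gas6*, the ligands of the lineage that were tested, *Pdgfa*, *Nrg1*, *Nrg2*, *Igf1*, *Jag1* and *Fgf2*, did not pass.

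Of 15 genes of the contacts between axon and myelin at the node of Ranvier and beside it, 14 were tested, 0 rose and 2 fell by edgeR's and likewise by DESeq2's adjusted p, and at an unadjusted p of 0.05 in edgeR 2 were higher and 4 lower, against 8.36% and 9.67% of all tested genes. *Kcnab2*, for the beta subunit of juxtaparanodal potassium channels, had 126, 122 and 134 CPM in the control and 105, 97.0 and 112 CPM in the Pcp2-cre mice. *Nrcam*, for a nodal adhesion protein, had 222, 205 and 222 CPM in the control and 199.8, 191 and 182 CPM in the Pcp2-cre mice. Their log2 fold changes were -0.29 and -0.18, and the call of *Nrcam* was lost in 3 of the 6 fits with a mouse left out. *Nfasc*, whose glial form joins the paranodal loops to the axon, had a log2 fold change of 0.06 and did not pass. Neurons, Purkinje cells among them, express most of this list.

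Of 11 genes that oligodendrocytes are known to switch on in disease and inflammation, 10 were tested, 5 rose and 1 fell. Of the 5 that rose, 4 passed the fold threshold, against 1.37% of all tested genes. *Serpina3n*, a protease inhibitor gene, had 2.5, 1.94 and 2.38 CPM in the control and 17.1, 13.5 and 18.6 CPM in the Pcp2-cre mice, a log2 fold change of 2.82 (SE 0.184). *C4b*, for complement component C4, had 10.23, 12.5 and 15.0 CPM in the control and 55.8, 61.6 and 61.3 CPM in the Pcp2-cre mice, a log2 fold change of 2.23 (SE 0.0987). The genes for antigen presentation, *B2m* and *H2-K1*, rose with log2 fold changes of 0.66 and 0.53, *Cd63* rose with 0.36, and *H2-D1* fell with -0.31. *H2-K1* and *H2-D1* are near-identical in part, as are *C4b* and *C4a*, so how the counting split their reads is uncertain. Astrocytes and microglia express these genes too, and the part of each cell type was not tested.

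Microglia genes changed by more than the oligodendrocyte genes did. Of 7 microglia genes 6 rose, the median log2 difference was 1.48, and the list summed to 104, 100.2 and 102 CPM in the control and 245, 247 and 266 CPM in the Pcp2-cre mice. Of 9 genes of astrocytes and Bergmann glia, *Gfap* and *Aqp4* rose with log2 fold changes of 1.94 and 0.51 while *Slc1a3*, the most abundant at 258 FPKM in the controls, and *Gdf10* fell with -0.22 and -0.25 (the latter lost in 1 of the 6 fits with a mouse left out), and the list had a median of 0.08. All 6 Purkinje cell genes fell, *Pcp2*, the most abundant at 552 FPKM, by -0.40 and *Itpr1* by -0.98. Of 7 granule cell genes, led by *Cbln3* at 246 FPKM, *Neurod1* rose with 0.17, a call lost in 5 of the 6 fits with a mouse left out, and the list had a median of 0.06. These values move with genotype beside the oligodendrocyte genes, and their part in the result was not tested.

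Among genes of vessels and meninges *Vtn* alone passed. The median log2 fold changes were 0.10 over 6 endothelial genes, led by *Ly6c1* at 33.7 FPKM, 0.09 over 6 mural cell genes, led by *Vtn* at 34.5 FPKM, and 0.13 over 7 fibroblast genes, led by *Igf2* at 29.5 FPKM although it had only 2.58 to 5.43 CPM. *Vtn* rose with a log2 fold change of 0.21, a call lost with DESeq2 and in 4 of the 6 fits with a mouse left out, and at an unadjusted p of 0.05 there were 1 endothelial, 2 mural and 0 fibroblast genes (edgeR), all higher, against 8.36% of all tested genes. Of 8 Schwann cell genes 3 were tested and 0 passed. *Pmp2*, for a fatty acid binding protein of peripheral myelin, had 0 counts in every mouse, and *Pmp22*, the most abundant at 17.2 FPKM, is expressed in brain as well.

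**Figure D4:**
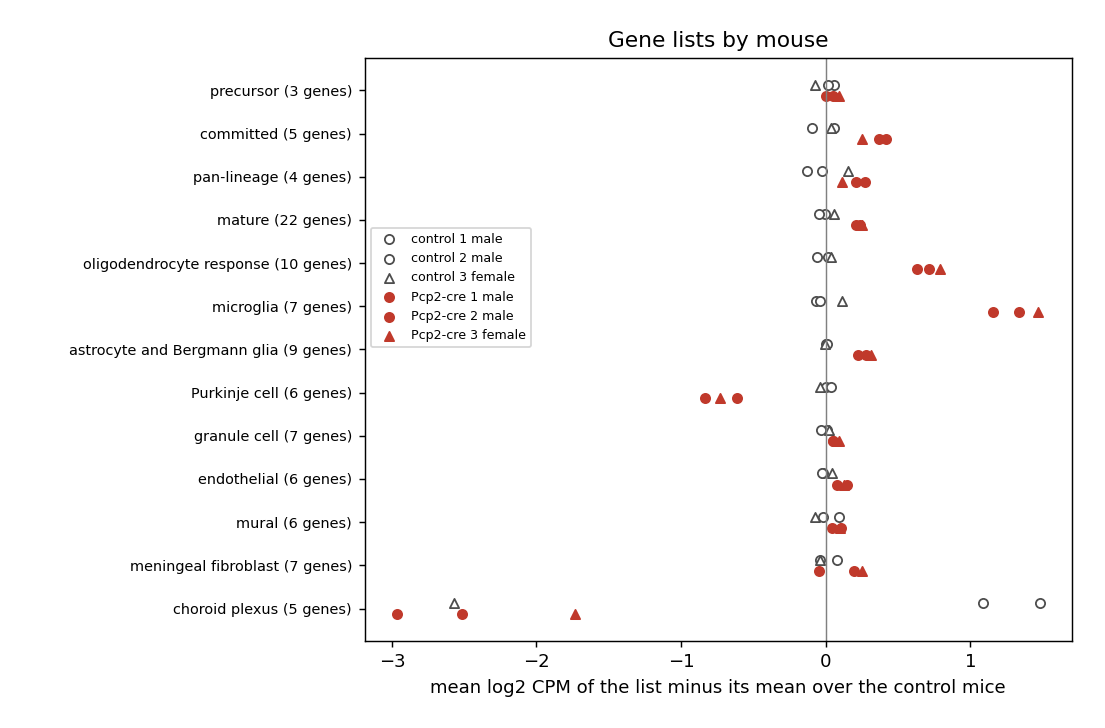
Mean log2 CPM of each gene list in each mouse minus its mean over the control mice; open symbols are control mice, filled red symbols Pcp2-cre mice, circles males and triangles females, with the number of tested genes in brackets. Mature oligodendrocyte genes shift by 0.21 to 0.25, microglia genes by 1.16 to 1.47 and Purkinje cell genes by -0.83 to -0.61, and choroid plexus genes stand high in control mice 1 and 2.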

How the data were processed

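Cerebellar RNA of 3 Pcp2-cre and 3 control mice was grouped by genotype from the sample labels. The authors aligned paired reads to GRCm39 with STAR and deposited raw counts per gene for 53746 genes, taken here to come from featureCounts. The authors also deposited FPKM values for 55005 genes, which were used for levels per length. Tool versions and the use of strand are not given in the sources used here. Genotypes were compared with edgeR 4.0.16 under R 4.3.3, using its filterByExpr and TMM steps and quasi-likelihood test, and p-values were adjusted by Benjamini-Hochberg over all 16961 tested genes. A gene rose or fell where its adjusted p did not exceed 0.05, and was up- or downregulated where its log2 fold change also reached 0.5 or -0.5. Groups called separate did not overlap in CPM. The members and gene lists were chosen with earlier results of these data known. Genes described in full were those that passed and the 3 with the highest FPKM in each stage; of other lists, up to 6 in each direction by smallest p and the most abundant gene. No test of a gene list was made. DESeq2 1.42.0, limma 3.58.1 on log2 FPKM with a pseudocount of 1 or 0.1, other scalings and filters, covariates and each mouse left out were the alternatives. Coordinates came from Gencode M39. On simulated counts the fit found 50 of 50 genes at each 2-fold change, and 46 and 45 of 50 at log2 changes of 0.6 and -0.6; the bar set for the latter was lowered after it was missed. None of the 15 pairs of libraries agreed within sampling noise.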

Additional observations from a re-analysis of the deposited data

How the results depend on the processing

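The 15 genes that rose had positive log2 fold changes under all 20 alternatives, and 3 of them, *Bcas1*, *Apod* and *Padi2*, also kept an adjusted p of at most 0.05 in each. No member passed in the lower direction under any of them. The number that rose fell to 7 with a choroid plexus score as a covariate, to 4 and 3 with limma on log2 FPKM with a pseudocount of 1 and 0.1, and to 7 against control 3 alone, an alternative chosen after seeing the data with fewer samples. It was 9 to 17 when each mouse was left out, 9 without control 1. Over all tested genes, 1312 passed an adjusted p of 0.05 in either direction in the main fit, and 848 with the choroid plexus score. With limma 507 and 435 passed at a pseudocount of 1 and 0.1, and 852 to 1386 when each mouse was left out. With sex as a covariate, library size alone and a replicate block 1437, 1356 and 1334 passed. With sex as a covariate, and also with library size alone, *Olig1*, *Gjb1* and *Anln* rose beside the 15. The number upregulated was 1 with log2(FPKM + 0.1), 0 with a log2 threshold of 1, and 2 to 4 when each mouse was left out. The median log2 fold change was 0.26 in males only, 0.16 with the choroid plexus score, 0.15 against control 3 alone, 0.14 when libraries were scaled to the granule cell genes, an alternative also chosen after seeing the data that moved the median of all genes to -0.06, and 0.18 to 0.24 when each mouse was left out. Same-numbered mice had correlations of 0.041, 0.056 and 0.166 across genes, the last of them for the female pair. Mice with different numbers had correlations of -0.111 to 0.073. With so few mice these values cannot tell whether the numbers pair them. With a replicate block 3 members were upregulated, 16 rose and the median was 0.21. Signs turned only in genes that did not pass with all mice and in genes shared with choroid plexus or measured differently in FPKM. With library size alone *Pdgfra* was 0.009. Without a filter *Sox6* was -0.001 and *Fa2h* -0.007. In males *Sox6* was -0.16 and *Tspan2* -0.014. With the choroid plexus score *Pdgfra* was 0.07, *Tcf7l2* -0.23, *Nkx2-2* -0.28, *Mobp* -0.016, *Fa2h* -0.028, *Enpp2* 0.016, *Ttr* 2.67, *Kl* 0.48 and *Slc4a5* 0.12. With log2(FPKM + 1) *Pdgfra* was 0.010, *Tcf7l2* -0.092, *Nkx2-2* -0.042, *Tspan2* -0.029 and *Nkx6-2* 0.10, and with log2(FPKM + 0.1) they were 0.015, -0.14, -0.054, -0.031 and 0.13. Against control 3 alone *Pdgfra* was 0.07, *Tcf7l2* -0.22, *Nkx2-2* -0.28, *Mobp* -0.039, *Fa2h* -0.017, *Enpp2* 0.21, *Ttr* 2.88, *Kl* 0.84 and *Slc4a5* 0.50. Scaled to the granule cell genes *Sox6* was -0.053, *Tcf7l2* -0.046, *Nkx2-2* -0.047, *Fa2h* -0.058, *Car2* -0.020 and *Tspan2* -0.047. When each mouse was left out *Pdgfra* ranged from -0.071 to 0.024, *Sox6* from -0.11 to 0.11, *Tcf7l2* from -0.18 to 0.18, *Nkx2-2* from -0.084 to 0.23, *Fa2h* from -0.053 to 0.050 and *Tspan2* from -0.010 to 0.055. The cause of these shifts was not tested. The lowest count of any member was 37, for *Nkx2-2* in control 2, which limits small changes there.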

Other observations

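The effect of genotype was compared between the male mice and the female pair, mouse 3 of each genotype. The interaction term passed an adjusted p of 0.05 in 35 of 16961 genes (edgeR, Benjamini-Hochberg) and in 0 of the 34 oligodendrocyte genes, whose smallest adjusted p was 0.78, with 5 of them at an unadjusted p of at most 0.05, against 5.43% of all genes. Control 3 is both the only female control and the only control with few choroid plexus transcripts, so sex and this difference cannot be told apart in the term. With 1 female mouse per genotype, the effect in females had no replicate of its own.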
